A study of Homo sapiens with 21 samples.

Results

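Regions of open chromatin that lie inside very long genes were described in microglia-like cells. Peaks of 21 ATAC-seq libraries that shared at least 1 bp were merged into 160166 autosomal regions. A region was taken when it lay within the span of an autosomal protein-coding gene longer than 1 Mb in GRCh38, more than 1 kb from both gene ends. This gave 4046 regions in 66 of 19126 autosomal protein-coding genes, on 18 chromosomes, and no region fell in more than 1 such gene. A library is said to call a region when any of its peaks lies in it.

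In ATAC-seq a transposase cuts and tags accessible DNA, so that a peak marks open chromatin. The cells were derived from the human embryonic stem cell line H9, by way of blood progenitors and 28 days of microglial differentiation, and 80000 live cells were sorted per line. The lines shared the H9 background. WT was the unedited line, and the others carried homozygous CRISPR/Cas9 edits in clones isolated by cell sorting. TREM2-R47H and TREM2-KO had edits of TREM2, a surface receptor of microglia that binds lipids. SORL1-A528T and SORL1-KO had edits of SORL1, a sorting receptor of endosomes. CD33 SNP and INPP5D SNP carried a disease-associated allele of CD33, which encodes an inhibitory receptor for sialic acids, and of INPP5D, which encodes an inositol phosphatase; H9 itself was heterozygous at INPP5D. Each of the 7 lines had 3 libraries. How many clones stand behind a line is not stated, and nothing in the labels says that replicates were separate cultures, so p-values measure the spread between libraries, which may be technical. The libraries titled SORL1-A528T carry the genotype label TREM2-KO and were grouped by title, so statements on SORL1-A528T concern the libraries so titled.

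Very long genes consist almost wholly of intron, and their transcription takes many hours. Many of them encode adhesion molecules, receptors and scaffolds of neurons, and several lie at common fragile sites, where chromosomes break when replication is slowed. Introns of this size hold enhancers, internal promoters and smaller genes on either strand. Microglia are the macrophages of the brain and are not known for the neuronal products of these genes. Of 14 microglial and macrophage markers, 9 had a peak within 1 kb of a gene end in all 21 libraries, among them SPI1, CSF1R, CX3CR1 and P2RY12, and TMEM119 had none in any library. Of 10 neuronal markers, STMN2 was the 1 called in all 21, and RBFOX3, DCX and NEFL were called in 0. The pluripotency genes POU5F1, NANOG, LIN28A and DPPA4 were called in 0 libraries.

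Libraries held 12.8 to 67.4 M tags (M, 1000 times 1000) and 39736 to 102891 peaks. Depth and peak quality moved with the replicate number: replicate 1 had 63.4 ± 3.66 M tags (SD, n = 7), replicate 2 15.6 ± 1.61 and replicate 3 46.5 ± 6.63, and the share of tags in peaks was 50.3%, 70.4% and 65.3%. The lists give positions and no peak height. The order of a list carries strength to a degree, so position in the file is given as an order percentile, with 100 for the first peak.

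Promoters that lie inside a very long gene are shown first, because they are the regions called in every library for which a start site is known. RefSeq promoter windows (GRCh38.p14, 250 bases before to 50 after a start) touched 25 of the 362 regions called in all 21 libraries. Of these, 12 held an internal start of the very long gene itself and 13 held a start of another gene alone. The 250 bases before the start are printed 5′ to 3′ for 3 windows of each kind. ROBO1, an axon guidance receptor, is shown for the region highest in the lists (chr3:79019460-79019709, minus strand). ZFHX3, a homeobox transcription factor (chr16:73048129-73048378, minus strand), had the most GGGCGG boxes. GPC6, a heparan sulfate proteoglycan (chr13:93226557-93226806, plus strand), had the only TATAAA. SOWAHC lies within the RefSeq span of RANBP2 (chr2:109614114-109614363, plus strand). CSTF2T, a factor of mRNA 3′ end formation, lies within PRKG1 (chr10:51699596-51699845, minus strand), and FLRT3, an adhesion protein, within MACROD2 (chr20:14337613-14337862, minus strand). Capitals mark GGGCGG, CCGGAAGT or TATAAA on either strand.
ROBO1: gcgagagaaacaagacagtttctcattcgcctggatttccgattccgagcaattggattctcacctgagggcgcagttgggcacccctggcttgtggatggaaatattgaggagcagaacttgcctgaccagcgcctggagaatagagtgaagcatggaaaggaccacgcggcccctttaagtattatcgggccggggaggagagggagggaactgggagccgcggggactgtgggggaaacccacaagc
ZFHX3: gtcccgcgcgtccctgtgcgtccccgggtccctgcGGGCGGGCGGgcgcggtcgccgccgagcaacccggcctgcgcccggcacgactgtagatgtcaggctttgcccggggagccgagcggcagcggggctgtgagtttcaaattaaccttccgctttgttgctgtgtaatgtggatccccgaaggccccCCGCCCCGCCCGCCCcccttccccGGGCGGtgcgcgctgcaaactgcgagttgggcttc
GPC6: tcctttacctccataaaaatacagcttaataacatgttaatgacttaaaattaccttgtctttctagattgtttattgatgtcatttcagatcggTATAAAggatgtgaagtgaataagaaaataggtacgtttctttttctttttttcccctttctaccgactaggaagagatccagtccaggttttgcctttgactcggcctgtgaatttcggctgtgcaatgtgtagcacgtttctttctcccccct
SOWAHC: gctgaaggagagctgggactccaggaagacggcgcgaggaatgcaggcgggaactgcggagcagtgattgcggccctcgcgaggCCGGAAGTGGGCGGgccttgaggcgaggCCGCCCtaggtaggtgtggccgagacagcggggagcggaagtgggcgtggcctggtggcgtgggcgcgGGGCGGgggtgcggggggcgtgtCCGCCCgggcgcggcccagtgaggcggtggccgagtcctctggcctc
CSTF2T: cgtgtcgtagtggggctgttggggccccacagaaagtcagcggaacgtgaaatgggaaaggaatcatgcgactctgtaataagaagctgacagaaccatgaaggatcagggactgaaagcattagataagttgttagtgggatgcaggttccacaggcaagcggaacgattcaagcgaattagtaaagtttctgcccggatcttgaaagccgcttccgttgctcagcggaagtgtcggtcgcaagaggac
FLRT3: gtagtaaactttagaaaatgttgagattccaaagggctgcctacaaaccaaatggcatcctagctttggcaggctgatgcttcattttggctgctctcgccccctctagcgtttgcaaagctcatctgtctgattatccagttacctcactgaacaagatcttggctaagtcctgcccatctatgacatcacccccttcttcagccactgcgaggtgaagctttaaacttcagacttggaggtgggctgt

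Over the full windows of the 25 coding genes concerned, GGGCGG, the box bound by SP factors, or its complement CCGCCC was found in 13, against 56.6% of 21156 coding promoter windows of the same length. CCGGAAGT, an ETS-type site, was in 2, those of SEPTIN10 and SOWAHC, whose windows overlap, against 5.44% of all. GAGGAAGT, a purine-rich site of the PU.1 type, and TGAGTCA, an AP-1 site, were in 0 of these windows and in 2.6% and 3.98% of all, while TATAAA was in 1 against 9.51%. Motifs were searched on both strands and a match is a description of letters only. The median GC content was 67.0% against 62.7% over all coding windows. The 3 printed windows without a capital, those of ROBO1, CSTF2T and FLRT3, held none of the 3 marked motifs.

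Recurrence over libraries was lower inside very long genes than over the autosomes. A member was called in a median of 3 libraries, against 7 for all autosomal regions. In all 21 libraries 362 members were called (8.95%, 95% Wilson interval 8.11 to 9.87), against 15.3% of all autosomal regions. In 1 library only, 1599 were called (39.5%, 38.0 to 41.0), against 25.7%. The intervals cover counting error only, and neighbouring regions share libraries and are not independent. Between these ends, 936 members (23.1%) were called in 2 to 5 libraries, 438 (10.8%) in 6 to 10, 305 (7.54%) in 11 to 15 and 406 (10.0%) in 16 to 20.

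**Figure D1:**
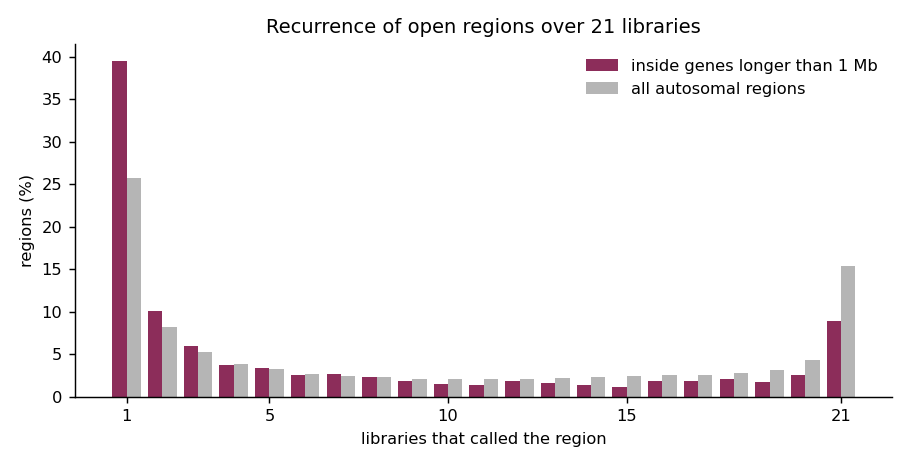
Share of regions (%, vertical axis) by the number of libraries that called them (horizontal axis, 1 to 21), for the 4046 regions inside genes longer than 1 Mb and for all 160166 autosomal regions. The dark bars exceed the grey bars at 1 library (39.5% against 25.7%) and fall below them at 21 (8.95% against 15.3%).

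Recurrence was lower in longer genes above 100 kb. The share of inside regions that every library called was 8.95% in genes over 1 Mb, 11.1% in genes of 500 kb to 1 Mb, 13.8% in genes of 100 to 500 kb, 13.6% in genes of 20 to 100 kb and 10.5% in genes of up to 20 kb. Regions per Mb of gene span were 44.5, 50.0, 60.6, 60.0 and 60.0 in the same order. Regions called in every library numbered 3.99, 5.54, 8.36, 8.18 and 6.29 per Mb. Very long genes thus held the fewest regions per Mb of these 5 length classes, and the fewest recurrent ones. Just inside the length limit, NCKAP5 (1003049 bp) held 57 regions with 11 in all 21 libraries, ADAMTSL1 47 with 6 and NKAIN2 62 with 2. Just outside it, ASTN2 (991946 bp) held 53 with 9, CAMTA1 25 with 2 and DLGAP2 32 with 4, so genes on both sides of the limit overlapped in these counts.

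Members were also narrower and lower in the lists than all autosomal regions, which include those at gene ends. Their median width was 642 bp against 738 bp for all autosomal regions, and 1299 against 1578 bp among regions called in every library. Regions called in 1 library had a median width of 501 bp in both sets. The median order percentile of the recurrent members was 76.1, against 82.2 for all recurrent autosomal regions. Inside genes of 100 kb to 1 Mb the median width was 725 bp. Among regions there that every library called it was 1347 bp, with a median order percentile of 77.9, both near the values of the recurrent members. Of the 362, 62 (17.1%) stood above the percentile of 90, against 28.1% overall.

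All 66 genes held regions, and 60 held at least 1 that every library called. Regions per gene ran from 13 to 117 with a median of 57, and regions per Mb from 11.2 to 78.2 with a median of 43.8. Among the genes with the most recurrent regions, ROBO2, an axon guidance receptor, had 18 of 97 (chr3:75906675-77649964) and ZFHX3 15 of 69 (chr16:72782885-73891930). DLG2, a postsynaptic scaffold, had 13 of 109, and CTNNA3, an alpha-catenin of cell junctions, 12 of 77. A further 5 genes had 11 each: NCKAP5, the adhesion protein OPCML, the inhibitory synapse scaffold GPHN, the reelin adaptor DAB1 and the ADP-ribose hydrolase MACROD2. The 10 genes with the most held 132 of the 362 recurrent members (36.5%).

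By library, ROBO2 regions were called 27 to 62 times with a median of 41.0 and ZFHX3 regions 21 to 52 times with a median of 45.0. ZFHX3 was among the genes whose regions recurred most, with a median of 13 libraries per region and 13.0% called in 1. GPHN had a median of 12.5, but its span holds 12 other coding genes. PTPRT, a receptor phosphatase of neuronal contacts, held only 13 regions, the fewest, with the highest median of any gene at 15 libraries.

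**Figure D2:**
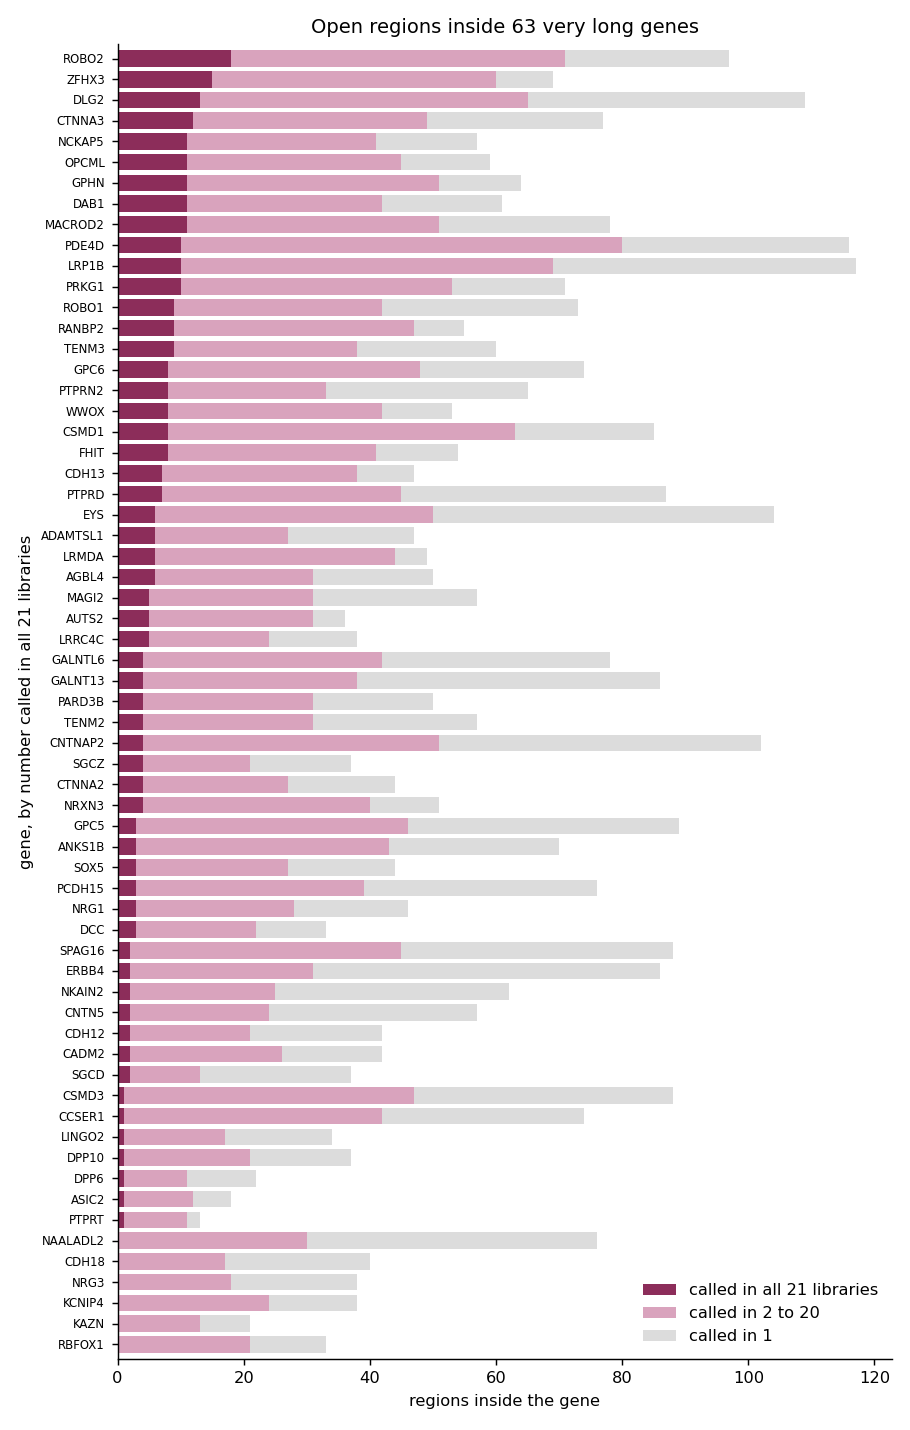
Regions inside each of 63 of the genes (horizontal axis, number of regions), split into those called in all 21 libraries, in 2 to 20 and in 1; genes are ordered by the number in all 21. ROBO2 has 18, and the 6 genes at the bottom have no region called in every library.

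Per Mb, SPAG16, a protein of the sperm axoneme, was densest at 78.2, followed by PDE4D, a cyclic AMP phosphodiesterase, at 74.7 and ERBB4, a neuregulin receptor, at 73.9. Recurrence differed among these 3 genes: ERBB4 had 64.0% of its regions in 1 library and SPAG16 48.9%, with 2 regions each in all 21, whereas PDE4D had 31.0% in 1 library and 10 regions in all 21. EYS, a matrix protein of photoreceptors, held 104 regions, of which 51.9% were called in 1 library, with a median of 1 library per region. The lowest densities were those of PTPRT (11.2), the splicing factor RBFOX1 (13.3, in 2.47 Mb) and the acid-sensing channel ASIC2 (15.7). The 6 genes without a region in all 21 libraries were NAALADL2, the cadherin CDH18, the neuregulin NRG3, the potassium channel partner KCNIP4, KAZN and RBFOX1.

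The genes were grouped by function into lists chosen from general knowledge; a gene may be on more than 1 list. The 21 genes of synapse and axon adhesion held 1191 regions, of which 9.57% were called in all 21 libraries and 40.5% in 1, with ROBO2, DLG2, PTPRD and CNTNAP2 as the largest. Ion channels, transmitter receptors and their partners (7 genes, among them ANKS1B and NKAIN2) had the lowest recurrent share, 3.77%. Cadherins and protocadherins (4 genes) had 5.85%, and glypicans and other matrix or glycan genes (8, among them GPC6, CSMD1 and EYS) had 5.62%. The highest shares were those of RNA and transcription regulators (ZFHX3, AUTS2, SOX5 and RBFOX1), 12.6% with 23.6% in 1 library, and of signalling enzymes (6, among them PDE4D and PRKG1), 60 of 499 regions. The 15 genes of common fragile sites, such as FHIT and WWOX, had 10.3%. Every list was below the 15.3% of all autosomal regions. Of the 66 genes, 32 were on the adhesion, cadherin or channel lists and 10 on none.

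Most recurrent members lay outside the RefSeq promoter windows; distance to a start was not measured, and the windows do not cover every gene. Of the 362, 337 (93.1%) touched no promoter window, whereas 28.5% of all recurrent autosomal regions touched one. Inside genes of 100 kb to 1 Mb the share touching a window was 8.42%, near the 6.91% of the members. By the RefSeq spans used, starts of other coding genes were those of CCDC138, SEPTIN10 and SOWAHC within RANBP2 and RPRM within GALNT13. Further ones were CSTF2T within PRKG1, LRRTM3 within CTNNA3 and FLRT3 within MACROD2. The RefSeq span of RANBP2 is 1.12 Mb and holds 5 other coding genes, and that of GPHN holds 12. Whether a shorter form of either gene would contain these starts was not examined. GPHN held the starts of PALS1, ATP6V1D, EIF2S1, ARG2, VTI1B and RDH11. Starts of long non-coding RNA genes were also touched, among them NCKAP5-AS2 within NCKAP5 and PDE4D-AS1 within PDE4D. Internal starts of the very long gene itself were called in DAB1, CTNNA2, GALNT13, ROBO2, ROBO1, TENM3, PDE4D, PRKG1, DLG2, GPC6, NRXN3 and ZFHX3. In the 54 genes that hold no other coding gene, 8.4% of 3240 regions were called in every library, against 11.2% of 806 in the 12 genes that do.

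The recurrent members highest in the lists were in genes of different kinds. First by median order percentile stood chr3:79014183-79020417 in ROBO1 (99.3), which is 6235 bp wide and holds the ROBO1 window shown with the promoter sequences. Next came chr8:4390729-4392467 in CSMD1, a complement control protein (99.2), chr10:52215572-52218001 in PRKG1, a cyclic GMP kinase (98.9), and chr9:8648688-8650118 in the receptor phosphatase PTPRD (98.7). None of these 3 touched a promoter window. The fifth, chr2:109612795-109615928 in RANBP2 (98.6), holds the starts of SEPTIN10 and SOWAHC.

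Counted by the best-called window of each gene, open chromatin at the own start was as frequent as over all coding genes. A promoter window was found for 54 of the 66 genes, and 25 of these (46.3%) held a region of all 21 libraries, against 46.5% of 15101 coding genes. In 14 genes (25.9%, against 27.3%) no library called the start, among them DCC, TENM2, PCDH15, DPP6, DPP10, LINGO2, ASIC2, PTPRT and RBFOX1, genes known from neurons. The genes with a start called in every library included ROBO1, ROBO2, DLG2, PTPRD, NRXN3 and CNTNAP2, also known from neurons, beside ZFHX3, PDE4D, WWOX and FHIT. A gene can have several windows: the 54 genes had 126, up to 9 in 1 gene, and the 15101 genes had 21156. More windows per gene give more chances of a call, so these shares are not like for like. In 12 of the 25 genes a called start was itself a member region. With such regions at own starts left out, 9.79% of 1788 regions inside the 25 genes were recurrent, or 4.78 per Mb, and 37.2% were called in 1 library. Inside the 14 with an uncalled start 6.21% of 644 were recurrent, or 2.07 per Mb, and 46.3% were called in 1 library. No test was made of this difference. With each of these 54 genes cut into 10 equal bins from its 5′ end, a bin held 8.91% to 10.7% of the regions, and bins 4 and 9 held the smallest and largest parts of the recurrent ones, 3.85% and 14.3%.

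Libraries differed in how much of their open chromatin lay inside very long genes. They called 783 to 2237 members with a median of 1175, which was 1.35% to 2.54% of each library's autosomal calls. For replicates 1, 2 and 3 the share was 1.85%, 1.87% and 2.0% in WT, 1.42%, 1.74% and 1.72% in TREM2-R47H, and 1.35%, 2.54% and 2.33% in TREM2-KO. It was 1.47%, 2.12% and 1.56% in SORL1-A528T and 1.51%, 1.71% and 1.66% in SORL1-KO. CD33 SNP had 1.56%, 1.94% and 2.01%, and INPP5D SNP 1.4%, 1.85% and 2.0%. Replicate 1 was the lowest library of every line. Means ran from 1.62% ± 0.104 (SD, n = 3) in SORL1-KO to 2.07% ± 0.635 in TREM2-KO, with WT at 1.90% ± 0.0806, and TREM2-KO held both the lowest and the highest library of all. Over lines, replicate 1 averaged 1.51% ± 0.165 (SD, n = 7), replicate 2 1.97% ± 0.285 and replicate 3 1.9% ± 0.266, so the replicate numbers differed about as much as the lines.

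**Figure D3:**
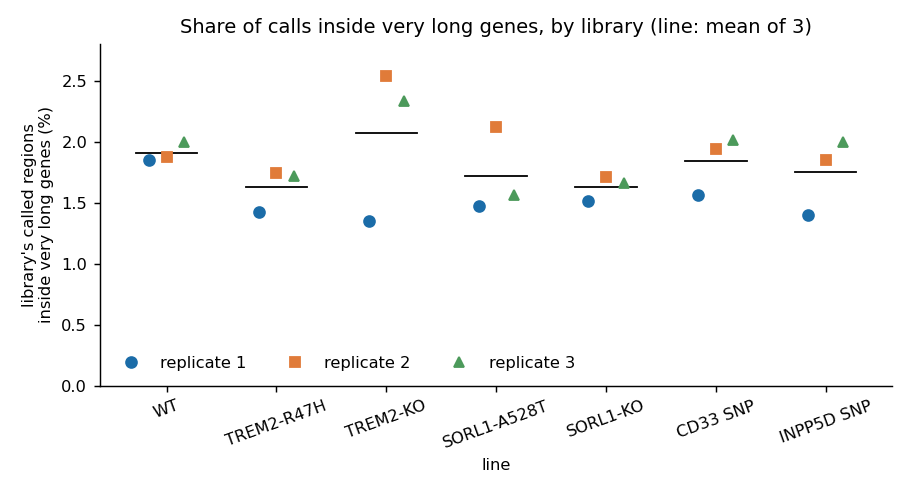
Share of each library's called autosomal regions that lie inside very long genes (%, vertical axis, from 0) by line; symbols are replicates 1 to 3 and the bar is the mean of 3 libraries. Replicate 1 is lowest in every line, and TREM2-KO spans 1.35% to 2.54%.

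TREM2-KO replicates 2 and 3 called many members that others did not. They called 232 and 279 members found in no other library, against 14 in TREM2-KO replicate 1. Over all autosomal regions the corresponding counts were 3827 and 5657, against 1145. Members thus made up 6.06% and 4.93% of such regions, against 1.22% in replicate 1. Over the 21 libraries this share ran from 0.879% to 7.62% with a median of 4.17%, so the excess was not particular to very long genes. Of the members called in 2 to 10 libraries, TREM2-KO replicate 3 called 65.4% and replicate 1 called 5.39%. Of 10 neuronal markers, TREM2-KO replicates 1, 2 and 3 called 4, 3 and 4 at a gene end, and all 21 libraries called 1 to 6. Of the 14 microglial markers the 3 TREM2-KO libraries called 13, 12 and 13. Calls at so few gene ends do not measure the mix of cells, which was not tested. The share of tags in peaks was 45.7% in TREM2-KO replicate 1, 68.0% in replicate 2 and 71.6% in replicate 3, and its part in the result was not tested.

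To compare lines with libraries of unequal depth, each call (1 or 0) was set against the share of equally recurrent autosomal regions, those with the same number of calling libraries, that the library in question called. This depth-adjusted call was averaged over the inside regions of a gene and tested with limma over the 4129 autosomal coding genes with at least 5 such regions, with Benjamini-Hochberg adjustment in each of 8 comparisons. A difference of 0.1 means 1 more region called in 10 than its recurrence and the library's depth would give. The 6 comparisons with WT share the WT libraries, and those within TREM2 and SORL1 share libraries with them.

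No very long gene passed an adjusted p of 0.05 in limma in any of the 6 comparisons with WT, where percent called over all genes was 0.0% each time. At an unadjusted p under 0.05, limma gave 6 of the 66 in TREM2-R47H (9.09%, against 9.59% of all genes), all lower than in WT. It gave 1 in TREM2-KO (against 3.83%), 2 in SORL1-A528T (4.46%), 2 in SORL1-KO (4.87%), 0 in CD33 SNP (2.28%) and 0 in INPP5D SNP (2.93%). These shares lay near or below those of all genes.

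With all libraries, most very long genes were on 1 side of WT in each line. In TREM2-R47H 58 of 66 were lower than in WT, with a median difference of -0.0516 against -0.00183 over all genes. In SORL1-KO 54 were lower (-0.0425 against -0.00149), in SORL1-A528T 54 (-0.0235 against -0.00521), in INPP5D SNP 52 (-0.0238 against 0.000282) and in CD33 SNP 50 (-0.0196 against 0.00799). In TREM2-KO 44 of 66 were higher than in WT, with a median of 0.0218 against -0.0141. In CD33 SNP and INPP5D SNP this depended on replicate 1: without it 38 of 66 were lower in CD33 SNP (median -0.00682) and 31 in INPP5D SNP (median 0.00369). Without it TREM2-KO had 54 higher (median 0.0611), against 37 without replicate 2 (0.00779) and 38 without replicate 3 (0.00967). SORL1-A528T had 40 lower without replicate 3 (-0.0203). All 6 counts rest on the same 3 WT libraries, and members are not replicates.

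The genes with the smallest p in each direction are given next, none of them past the adjusted threshold in limma (smallest adjusted p 0.457 among the very long genes). The mean depth-adjusted call of PTPRT was 0.0694, 0.109 and 0.0794 in WT and -0.026, -0.0757 and -0.0626 in TREM2-R47H, a difference of -0.141 (SE 0.0572). It was -0.137, -0.115 and -0.0461 in SORL1-A528T, a difference from WT of -0.185 (SE 0.0572). The 3 WT libraries stood above all libraries of both lines. SGCD, a sarcoglycan of the muscle membrane, was 0.0731, 0.0371 and 0.0602 in WT and -0.161, -0.0661 and -0.0589 in TREM2-R47H, also without overlap. In SORL1-KO the lower gene with the smallest p was ASIC2, with a difference from WT of -0.179 (SE 0.0761). The higher genes had 0.0935 (SE 0.0521) for PTPRN2, a phosphatase-like protein of secretory vesicles, and 0.069 (SE 0.0393) for ZFHX3.

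Among genes higher than in WT, FHIT (0.0555) and ZFHX3 (0.0376) had the smallest p in TREM2-R47H. For TREM2-KO these were GALNTL6, a glycosyltransferase of mucin type (0.121, SE 0.062), and the ERBB ligand NRG1 (0.104, SE 0.0563). Among lower genes they were AUTS2 (-0.137) and RBFOX1 (-0.0675). CD33 SNP had RANBP2, a nuclear pore protein (0.0659), LRMDA (0.0614), PTPRT (-0.11) and ADAMTSL1 (-0.0905), and INPP5D SNP had RANBP2 (0.0762), NRG3 (-0.107) and DPP6 (-0.109). GPHN (0.0375) and AGBL4 (0.0417), an enzyme that trims glutamate chains from tubulin, were those higher in SORL1-A528T. None of these differences passed the adjusted threshold in limma.

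AUTS2, a transcription regulator of neural development that works with a Polycomb complex (chr7:69598475-70793506, 36 regions), was the very long gene with the smallest p among lines. In replicates 1, 2 and 3 WT called 25, 9 and 23 of its regions, TREM2-R47H 18, 11 and 21 and TREM2-KO 8, 13 and 20. SORL1-A528T called 8, 5 and 9, SORL1-KO 21, 13 and 19, CD33 SNP 20, 14 and 23 and INPP5D SNP 16, 10 and 19. SORL1-A528T thus made 22 of 108 possible calls (20.4%), against 38.0% in TREM2-KO and 41.7% to 52.8% in the other lines.

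After depth adjustment AUTS2 was -0.131 ± 0.0661 (SD, n = 3) in SORL1-A528T and -0.067 ± 0.0832 in TREM2-KO, with 0.0697 ± 0.038 in WT and 0.0692 ± 0.0303 in SORL1-KO. The 3 SORL1-A528T libraries (-0.143, -0.0595 and -0.19) lay below all libraries of WT and SORL1-KO. The difference was -0.201 from WT (SE 0.0489, limma adjusted p 0.86) and -0.2 from SORL1-KO (limma adjusted p 0.176), in 3 of 3 libraries each, so neither passed without a replicate block. TREM2-KO differed from WT by -0.137 (limma adjusted p 0.999), a value that became 0.00371 with lists of equal length, and with such lists the SORL1-A528T difference from WT was -0.149. Within each replicate number SORL1-A528T had the shortest list, at 69732, 39736 and 78438 peaks.

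**Figure D4:**
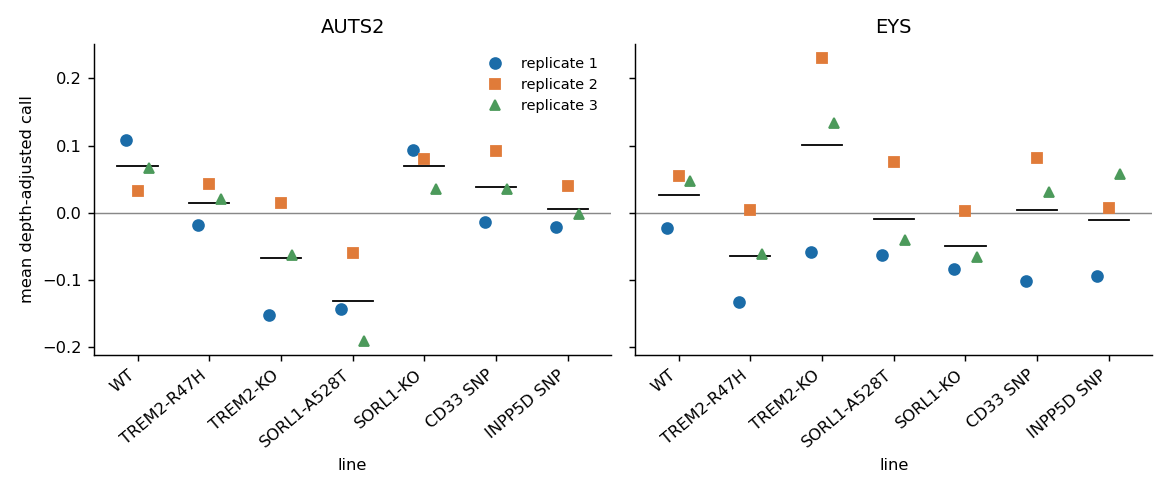
Mean depth-adjusted call (vertical axis, 0 being the call expected from recurrence and depth) over the 36 regions of AUTS2 and the 104 of EYS in each library, by line; symbols are replicates and bars are means of 3. AUTS2 is lowest in SORL1-A528T (-0.19 to -0.0595), and EYS is highest in TREM2-KO replicates 2 and 3 (0.23 and 0.133).

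Between the SORL1 lines no very long gene passed in limma without the replicate number as a block (percent called 0.0484% of all genes), and 5 of 66 had an unadjusted p under 0.05 (7.58%, against 6.18%), 4 of them lower in SORL1-A528T. Beside AUTS2 the lowest was ZFHX3, at -0.126 (SE 0.0393, limma adjusted p 0.478). SORL1-A528T called 31, 21 and 35 of the 69 ZFHX3 regions and SORL1-KO 49, 36 and 47, without overlap. AGBL4 (0.133) and the cadherin CDH12 (0.103) had the smallest p among higher genes. Over all 7 lines, limma's F test called 0 very long genes (percent called 0.0242%), and 4 of 66 had an unadjusted p under 0.05: AUTS2, AGBL4, PTPRT and RANBP2 (6.06%, against 6.47%).

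The largest contrast lay within TREM2. Very long genes were called less in TREM2-R47H than in TREM2-KO, with 52 of 66 lower and a median difference of -0.0902, against 0.0115 over all genes. Without a block 0 passed in limma (percent called 0.121%), and 19 of 66 had an unadjusted p under 0.05 (28.8%, against 16.1% of all genes), all lower in TREM2-R47H. Libraries with the same replicate number deviated together in this comparison (correlations over 4129 genes of 0.52, 0.28 and 0.16), so the numbers were taken to pair them. This choice rests on the same data. The labels state no pairing, depth followed the replicate number, and the main fit had no block. In the fit with the block the replicate effect was common to all 7 lines. In the other comparisons the same-numbered pairs did not all deviate together. With the replicate number as a block, 16 of 66 passed in limma, all lower in TREM2-R47H. Over all genes percent called was 6.13%, with 2.95% lower and 3.17% higher. The regions averaged include those called in 1 library only. Among the members, 232 and 279 of these entered the set through TREM2-KO replicate 2 or 3 alone, the line that was higher here. No fit combined the block with a minimum of 2 calling libraries.

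Every one of the 16 was lower in 3 of 3 same-numbered pairs, with differences from -0.222 to -0.113. The genes were chosen by the block test on these same pairs, so this describes them and adds no support. DPP6, a partner of potassium channels, had the largest (-0.222, SE 0.0579, limma adjusted p 0.017 with the block), followed by the adhesion protein CADM2 (-0.198) and the protocadherin PCDH15 (-0.187). EYS had the smallest adjusted p (-0.165, SE 0.0332, limma adjusted p 0.00532 with the block), and then SPAG16 (-0.161) and ANKS1B, a postsynaptic protein (-0.168). EYS regions were called 11, 11 and 19 times in TREM2-R47H and 9, 44 and 49 times in TREM2-KO, against 26, 15 and 32 in WT. TREM2-KO replicate 1 thus called no more EYS regions than TREM2-R47H. After adjustment the lines overlapped in 15 of the 16 genes, and only AGBL4 stood apart, at -0.112, -0.0769 and -0.0651 against -0.0206, 0.145 and 0.12. Overlap was not counted over all genes tested, so this count has no background beside it.

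By list, the 16 were 3 of 21 adhesion genes (CTNNA2, NRG1 and CADM2), 2 of 4 cadherins (PCDH15 and CDH12) and 3 of 7 channel and receptor genes, among them ANKS1B and DPP6. Matrix and glycan genes gave 3 of 8 (EYS, GALNTL6 and CSMD3), fragile site genes 2 of 15 (among them LRP1B), and 4 were on no list (AGBL4, GALNT13, SPAG16 and CCSER1). Of the RNA and transcription regulators and of the signalling enzymes 0 of 4 and 0 of 6 passed in limma with the block, and their median differences were 0.0561 and -0.0437. All 21 adhesion genes had a negative difference, with a median of -0.0938. Of the regions of the 16 genes 5.1% were called in all 21 libraries, against 10.4% in the other 50 genes, and the median share called in 1 library was 46.4% against 36.8%. A region called in all 21 libraries has a depth-adjusted call of 0 in each. The test thus favours genes with few such regions, and these shares are not independent of the selection.

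The number of calls changed with the replicate number that was left out, which takes a library from every line. Without replicate 2, or without replicate 3, limma with the block called 0 very long genes (24 and 22 at an unadjusted p under 0.05, all lower), and without replicate 1 it called 28, which included all 16. The differences of the 16 genes, which were chosen on this contrast, stayed negative each time, with a median of -0.161 with all libraries, -0.207 without replicate 1, -0.168 without replicate 2 and -0.18 without replicate 3. With lists of equal length it called 2, PARD3B (lower) and PTPRN2 (higher), neither among the 16. The share over all genes is not given beside these counts, so they are not shown to be particular to very long genes. In the single pairs 46 of 66 genes were lower in TREM2-R47H in replicate 1, 54 in replicate 2 and 55 in replicate 3. In all 3 pairs 38 (57.6%) were lower, against 18.2% of all genes tested. These means also include regions called in 1 library only, which made up 39.5% of the members and 25.7% of all autosomal regions. Those called by TREM2-KO replicate 2 or 3 alone raise TREM2-KO by construction. The pairs were not recounted without them, so the 2 shares are not like for like.

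**Figure D5:**
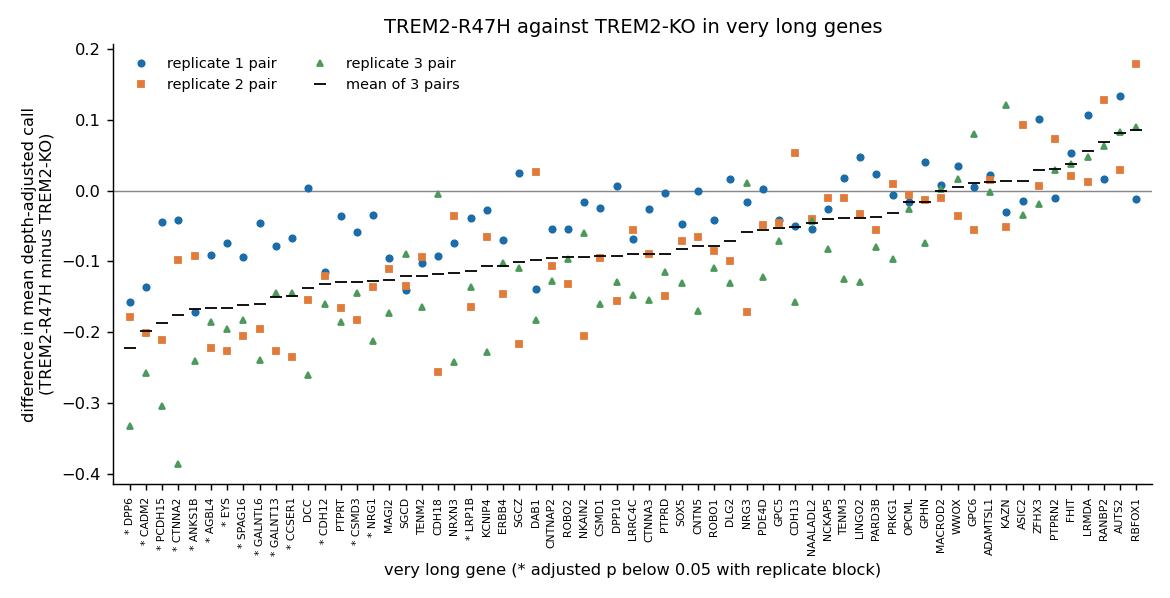
Difference in mean depth-adjusted call, TREM2-R47H minus TREM2-KO (vertical axis), for each of 63 of the genes in the 3 same-numbered pairs, with the mean as a bar; asterisks mark the 15 of these genes past an adjusted p of 0.05 with the replicate block. Most genes lie below 0, the replicate 1 points mostly nearer to 0 than those of replicates 2 and 3.

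Single regions were compared, with no test, as all-or-none: present in the 3 lists of a line and absent from the 3 lists of another. The libraries titled SORL1-A528T had the most losses: 39 members (0.964%) called in all WT libraries were called in none of them, against 0.477% of all regions, and 1 member was gained (0.0247%, against 0.0119%). These 39 lay in 30 genes. Against SORL1-KO 58 members were lost (1.43%, against 1.1%) in 33 genes and 4 gained (0.0989%, against 0.111%), with 5 of the lost in ZFHX3, 4 in GPC6 and 3 each in AUTS2, LRRC4C, PDE4D and ROBO2. With lists of equal length 2 of the 39 and 1 of the 58 were still all-or-none. Leaving out a replicate number, which asks for 2 libraries per line, gave 2.08% to 7.75% and 3.4% to 4.09%.

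Of the lost regions, 5 were present in each of the 18 libraries outside SORL1-A528T and in none of its 3 (0.124% of members, against 0.0237% of all regions). They were chosen after their values were seen. The region in CADM2, a synaptic adhesion molecule, is chr3:85504050-85505659 with a median order percentile of 72.8, and that in NKAIN2, a partner of the sodium pump, is chr6:124432383-124433373 with 50.3. The others are chr16:73496867-73497742 in ZFHX3 (51.5), chr13:94129263-94130105 in GPC6 (40.7) and chr6:64014354-64015272 in EYS (26.2). The CADM2 and NKAIN2 regions were also the 2 that were lost against WT with lists of equal length. None of the 5 touched a promoter window. No other line lacked a member that all 18 remaining libraries called, and no line had a member called in its 3 libraries alone; the members' share was thus 0.0% for each of these patterns. Over all regions, regions missing from 1 line alone made up 0.0% for WT, 0.00437% for TREM2-R47H and 0.000624% for each of TREM2-KO, SORL1-KO, CD33 SNP and INPP5D SNP. Regions present in 1 line alone made up 0.00624% for TREM2-R47H, 0.00312% for WT and for TREM2-KO, 0.00187% for CD33 SNP, 0.000624% for SORL1-A528T and for SORL1-KO and 0.0% for INPP5D SNP.

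The other lines had fewer such regions, and leaving out a replicate number, with 2 libraries per line, raised every share. In TREM2-R47H 18 members were lost against WT (0.445%, against 0.298% of all regions) and 3 gained (0.0741%, against 0.124%), the first of the lost by file order being chr1:57982160-57983132 in DAB1, chr5:60183700-60184637 in PDE4D and chr12:23595372-23596089 in SOX5. In TREM2-KO 1 was lost (0.0247%, against 0.0568%), in DAB1, and 3 were gained (0.0741%, against 0.0462%), in GPHN, ROBO2 and RANBP2. SORL1-KO lost 14 (0.346%, against 0.227%), 3 of them in PCDH15, and gained 0 (0.0%, against 0.0637%). CD33 SNP lost 2 (0.0494%, against 0.0412%), in GALNTL6 and PCDH15, and gained 2 (0.0494%, against 0.0912%), in PTPRD and FHIT. INPP5D SNP lost 10 (0.247%, against 0.14%), among them regions in NRG1, CCSER1 and PCDH15, and gained 3 (0.0741%, against 0.0268%), in SPAG16, CSMD1 and CDH13.

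Between the TREM2 lines, 12 members were called only in TREM2-R47H (0.297%, against 0.342%) and 11 only in TREM2-KO (0.272%, against 0.282%), shares near those of all regions. With 2 libraries per line, when a replicate number was left out, these became 0.54% to 1.99% and 0.915% to 7.02%, the last without replicate 1. Among the first by file order were chr2:212157806-212158802 in ERBB4 and chr13:94243301-94244196 in GPC6 for TREM2-R47H. For TREM2-KO they were the same DAB1 region and 2 regions of LRP1B, a lipoprotein receptor (chr2:140797520-140798355 and chr2:141335846-141336756). The DAB1 region was called in all libraries of WT and TREM2-KO and in 17 libraries in all. Of the all-or-none members outside the SORL1-A528T comparisons, 0 kept that state with lists of equal length.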

How the data were processed

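Open chromatin was measured by ATAC-seq in 21 libraries, 3 for each of 7 lines, grouped by their titles. The deposited peak lists, per the file headers, come from HOMER findPeaks run separately on each library in its histone style, with a peak size of 500 bp, a minimum distance of 1000 bp and a stated 4.0-fold excess over the surrounding 10000 bp; per the same headers that local filter removed 0 peaks. The fragment length in the headers was 74 in 14 libraries and up to 494 in the others. The score column is 1 throughout the deposited lists, which hold no peak heights. The submitters' processing notes name cutadapt 1.18, STAR 2.7, HOMER 4.10 and DESeq2, with no role given for the last. The genome build and any shift for the transposase cut are not given in the sources used here. Of 21156 coding promoter windows of GRCh38.p14, 43.3% overlapped a region of all 21 libraries, against 2.79% and 2.82% after shifts of 10 kb, so GRCh38 gene spans were used.

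Gene spans came from a RefSeq gene table and promoters from RefSeq windows of the same build; coordinates are counted from 1. The per-gene mean depth-adjusted call was fitted with limma 3.58.1 (R 4.3.3) over all 21 libraries, with a variance prior that follows the log2 number of regions and line as the only term; the script was checked on simulated data. Shares carry 95% Wilson intervals. The peak lists hold no counts per region, so no count test was used. Members, gene lists and comparisons were chosen with earlier results of these data known.

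Genes were named by rule: the 10 with most regions called in every library, the 3 densest and 3 sparsest per Mb, those past the threshold or, where none passed, the 2 with the smallest p in each direction, and list members by size. Named regions were the 5 recurrent ones highest in file order and up to 3 gained and 3 lost per comparison. The replicate number was tried as a block. It was taken to pair libraries only for TREM2-R47H against TREM2-KO, where all 3 same-numbered pairs deviated together with a correlation above 0.1 (0.52, 0.28 and 0.16); in the other 7 comparisons at least 1 pair did not. Alternatives were other length limits (800 kb and 1.5 Mb), 10 kb from gene ends, a cover of 50%, a minimum of 2 calling libraries, lists of equal length (39736 peaks), at least 10 regions per gene, a constant prior, unadjusted calls, and leaving out regions near other gene ends, a replicate number or the SORL1-A528T libraries. Some results that meet these rules are not reported here.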

Additional observations from a re-analysis of the deposited data

How the results depend on the processing

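Among the member counts and shares, the number of regions was 6293 with genes longer than 800 kb, 1368 with 1.5 Mb, 2447 with regions called in at least 2 libraries and 1394 with lists of equal length. The share called in all libraries was 9.87% with 1.5 Mb, 3.61% with a cover of 50%, 14.8% with at least 2 libraries, 15.8% with equal lists and 10.1% to 15.8% without a replicate number. The share called in 1 library was 37.4% with 800 kb, 0.0% with at least 2 libraries by construction, 34.8% with equal lists and 35.1% to 43.0% without a replicate number. The mean share of a library's calls was 2.91% with 800 kb, 0.633% with 1.5 Mb, 1.41% with equal lists and 1.41% without genes that hold other coding genes. The TREM2-KO minus WT difference of that share ran from -0.0805 to 0.501 points without a replicate number.

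All-or-none shares without a replicate number, which then need 2 libraries, were, for regions called only in the edited line and only in WT, 0.515% to 0.783% and 0.891% to 3.63% for TREM2-R47H, 0.289% to 4.56% and 0.135% to 1.69% for TREM2-KO, 0.172% to 0.351% and 2.08% to 7.75% for SORL1-A528T, 0.354% to 0.648% and 1.05% to 4.32% for SORL1-KO, 0.643% to 1.4% and 0.486% to 1.57% for CD33 SNP, and 0.315% to 0.675% and 0.567% to 2.83% for INPP5D SNP. TREM2-R47H against TREM2-KO gave 0.54% to 1.99% and 0.915% to 7.02%, and SORL1-A528T against SORL1-KO 0.611% to 0.972% and 3.4% to 4.09%. With equal lists the regions gained were 0.574% (TREM2-R47H), 0.0% (TREM2-KO) and 0.287% (SORL1-KO) against WT, 1.0% for TREM2-R47H against TREM2-KO and 0.717% for SORL1-A528T against SORL1-KO. The regions lost with equal lists were 0.143% (TREM2-KO), 0.717% (SORL1-KO), 0.215% (CD33 SNP) and 0.0717% (INPP5D SNP) against WT and 0.502% for TREM2-R47H against TREM2-KO. With at least 2 libraries the regions lost were 0.736% (TREM2-R47H) and 1.59% (SORL1-A528T) against WT and 2.37% for SORL1-A528T against SORL1-KO. TREM2-R47H gained 0.0% with 1.5 Mb, and TREM2-KO lost 0.0% with a cover of 50% and without genes that hold other coding genes.

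With the replicate number as a block, limma called 16 very long genes for TREM2-R47H against TREM2-KO, 1 (AUTS2, adjusted p 0.0205) for SORL1-A528T against SORL1-KO and 3 (AUTS2, EYS and SPAG16) among lines, and 0 in the 6 comparisons with WT. The block with equal lists gave 2 for TREM2-R47H against TREM2-KO, and the block without the SORL1-A528T libraries gave 18 there and 4 among lines. Without a replicate number, with or without the block, the counts ran from 0 to 28 for TREM2-R47H against TREM2-KO (13 without replicate 1 and no block, 28 without replicate 1 with the block), from 0 to 2 for TREM2-KO against WT (GALNTL6 and PCDH15, without replicate 1 with the block) and from 0 to 11 among lines; the cause was not tested. These fits combining the block with another setting, and those without RANBP2 or without genes that hold other coding genes, were chosen after seeing the data. No share over all genes is given here beside the counts, so they are not shown to be particular to very long genes.

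Some unpassed differences changed sign. With equal lists, alike with and without the block, these were FHIT in TREM2-R47H (-0.00305), NRG1 (-0.0278) and AUTS2 (0.00371) in TREM2-KO, RANBP2 (-0.0106) and DPP6 (0.00811) in INPP5D SNP, all against WT, and AUTS2 in TREM2-R47H against TREM2-KO (-0.0577). With unadjusted calls GPHN (-0.0781) and AGBL4 (-0.0333) turned in SORL1-A528T, and without replicate 1 AGBL4 there (-0.0114 to 0.127 over the libraries left out) and LRMDA in CD33 SNP (-0.00503 to 0.113). Of the other recomputed values, 746 of those of single genes kept their direction and side of the threshold. For summary values, 532 stayed within a set distance of the main value, such as its Wilson interval or the SD between libraries. Direction was not part of that rule, and some of these differences changed sign. Without a replicate number the difference in the share of a library's calls ran from -0.14 to 0.0422 points for CD33 SNP against WT. For SORL1-A528T against SORL1-KO it ran from -0.0658 to 0.189.

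With 12.8 M to 67.4 M tags and no peak heights, a region that a library did not call is not shown to be closed, only to lie below that library's threshold. Depth followed the replicate number, and list length was lowest in SORL1-A528T, so lost calls and a short list cannot be told apart there except with lists of equal length.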
